A study of Mus musculus with 3 samples.

Results

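G protein subunits, the RGS proteins that switch them off, and the enzymes that make and break cyclic nucleotides were followed in neural retina of Rp1 knockout mice, leaving out the members that serve phototransduction itself. The genes were chosen by name, under a rule written with earlier results of these data known. It took each symbol that begins with Gna, Gnb, Gng, Rgs, Adcy or Gucy, or Pde and a number, carried by a probe set with 1 symbol. The transducins and their partners (Gnat1, Gnat2, Gnb1, Gnb3, Gngt1, Gngt2), all Pde6 genes, Rgs9, Gucy2e and Gucy2f were left out. This gave 53 of the 8251 genes that the annotation names on the array, each read by 1 probe set, with a plain suffix preferred and then the highest mean. Of these, 49 encode proteins of the named families and 4 only share the start of a symbol (Adcyap1, Adcyap1r1, Pde4dip and Gnasas1).

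The samples were 3 RNA pools of Rp1-/- neural retina at postnatal day 21, each from 3 to 4 mice on a mixed 129/SvEv and C57BL/6 background, dissected between 1 and 2 pm and hybridised to 1 array each. They form 1 group with no wild-type counterpart analysed here, so no test between conditions was possible and all values describe these 3 pools. Sex is not given in the labels, and the targeted gene had no probe set under its symbol (0 found), so the genotype rests on the labels. Rp1 encodes a microtubule-binding protein of the photoreceptor axoneme.

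Heterotrimeric G proteins carry signals from membrane receptors: the alpha subunit binds GTP, parts from the beta-gamma dimer, and both act on enzymes and channels until the alpha subunit hydrolyses its GTP, a step that RGS proteins speed up. Gs raises and Gi lowers cyclic AMP made by adenylyl cyclases, Gq acts through phospholipase C, and phosphodiesterases degrade cyclic AMP and cyclic GMP. In the retina, Go carries the glutamate signal of ON bipolar cells, and cyclic AMP mediates much of the action of dopamine.

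Signals are linear intensities scaled to a common trimmed mean, and since probe sets differ in response, levels are set against each other only within a probe set. The background limit of an array was the 95th percentile of its 19 control probe sets from bacteria and yeast, and lay at 160.3, 80.7 and 107.1 in pools 1, 2 and 3. Pool 1 stood apart, with the highest limit. Its log2 signals correlated with those of pools 2 and 3 at r = 0.82 for both over 5006 genes above background on all 3 arrays, while pools 2 and 3 reached r = 0.94 (across genes, which are not independent replicates). Summed signals of 5 measured pigmented cell markers were 1422, 12026 and 7835 in pools 1, 2 and 3, with 2 of the 5 above background on all arrays. Those of 6 stroma and smooth muscle markers were 1586, 3366 and 4087 (3 of 6), those of 4 blood genes 5490, 31716 and 8254 (2 of 4), and those of 5 endothelial markers 2286, 1333 and 1709 (3 of 5). Markers of the retina itself passed the limit on every array for 5 of 5 rod, 5 of 5 Müller glia, 5 of 5 amacrine and ganglion cell genes and 3 of 4 bipolar genes. So did 6 of 6 lens crystallin and related genes, which summed to 128047, 189531 and 133829, while 2 of 6 microglial and lymphoid genes (1399, 1063 and 1402) and 1 of 4 skeletal muscle genes (645, 713 and 708) did. The retinal markers summed to 45149, 60020 and 39193 for rods and 11290, 17536 and 14424 for Müller glia. Amacrine and ganglion cell markers summed to 14071, 17025 and 14751. Sums follow the brightest probe sets, and single genes differed. Highest in pool 1 were 2 of 5 rod markers, Prph2 (4470, 1941 and 1690) and Cnga1 (3223, 3030 and 1972). So were 3 of 5 amacrine and ganglion cell markers (Gad1, Nefl and Thy1), against 42.6% of all genes. Of the 5 Müller glia markers, 4 had a 2-fold range, against 28.3% of all genes, in differing directions. Vim (475, 91.1 and 174) and Glul (3557, 2390 and 1378) were highest in pool 1. Clu (3682, 9331 and 8369) and Aqp4 (650, 1395 and 1347) were lowest there. No marker was listed at 0. In whole tissue, fewer cells of a type and less RNA per cell cannot be told apart.

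Of the 53 genes, 36 were above background on all 3 arrays, 9 on 1 or 2 arrays and 8 on none. The share above on all arrays was 67.9%, against 60.7% of all genes. By array, 38 of the 53 were above background in pool 1, 44 in pool 2 and 40 in pool 3 (71.7%, 83.0% and 75.5%). The shares of all genes were 69.4%, 75.6% and 73.6%, in the same order across pools. Alpha subunits were the most complete family, with 10 of 12 above on all arrays, followed by 9 of 12 RGS genes and 6 of 9 beta and gamma subunits. Cyclases (5 of 9) and phosphodiesterases (4 of 7) followed. The plot of signals by pool shows all 53 genes.

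**Figure D1:**
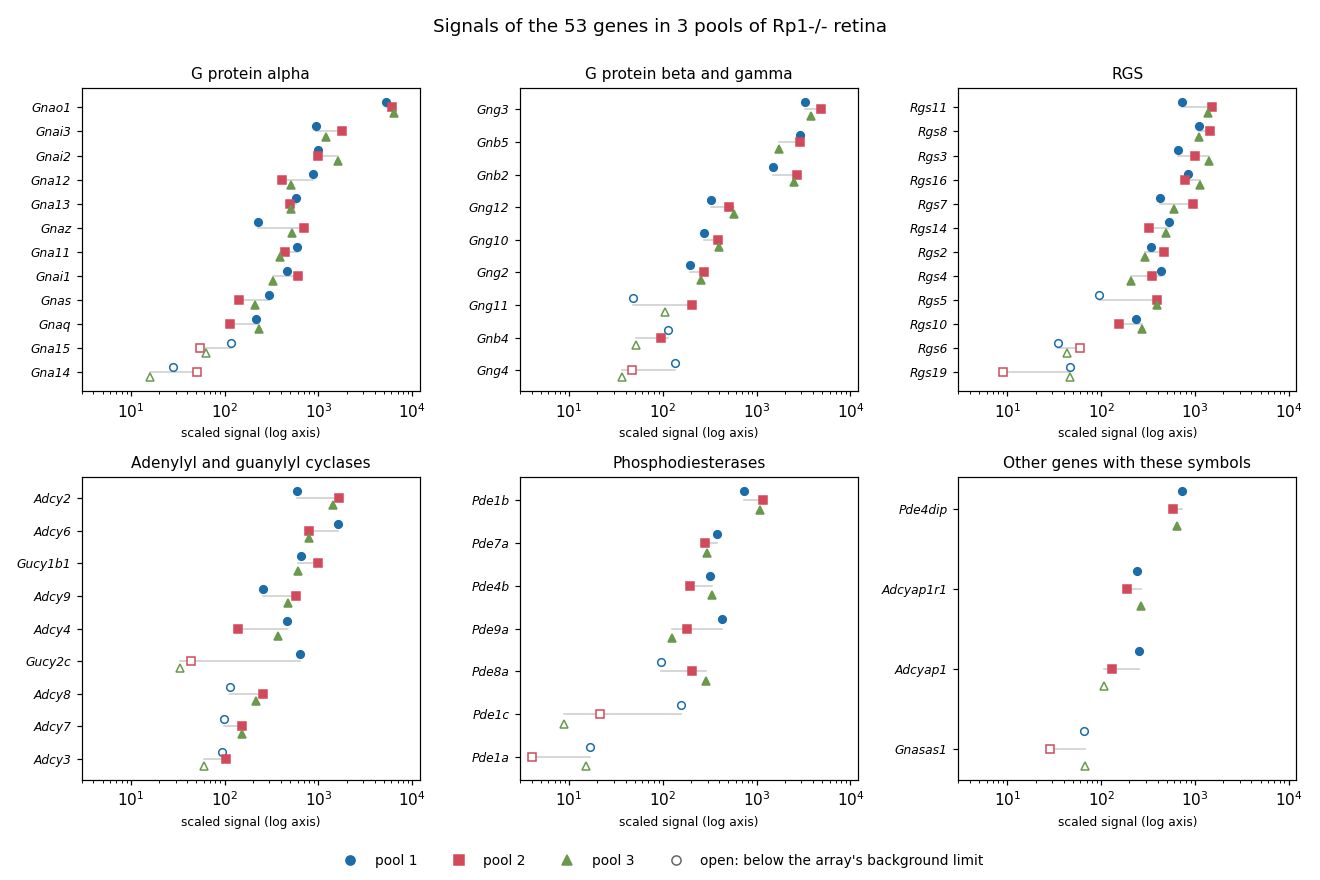
Scaled signal (log axis) of each of the 53 genes in pools 1, 2 and 3, by family, 1 point per pool. Points are shifted slightly up or down by pool for legibility. Open points lie below the background limit of their array. Gnao1 spans only 5235 to 6427, while Gucy2c is above background in pool 1 alone, at 634.

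All 5 alpha subunits of the Gi, Go and Gz class were above background on all arrays. Gnao1, which encodes the Go alpha subunit of ON bipolar and many other neurons, had signals of 5235, 6142 and 6427 in pools 1, 2 and 3, a 1.23-fold range. The 3 pools lay close together at this probe set, although the range was 1.60-fold at a common array median, with pool 2 highest. Gnai2 and Gnai3, which encode Gi alpha subunits that inhibit adenylyl cyclase, gave 1003, 996 and 1631, and 943, 1787 and 1197. Gnai1 gave 467, 605 and 327. At the probe sets used, Gnai2 was highest in pool 3 and the others in pool 2, with ranges under 2-fold as deposited. At a common array median, Gnai1 spanned 2.13-fold and Gnai3 2.59-fold. A further Gnai1 probe set gave 175, 158 and 125, with pool 1 highest. Gnaz, which encodes the pertussis toxin-insensitive Gz alpha subunit, gave 228, 711 and 527, a 3.12-fold range with pool 1 lowest.

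Gnas, the Gs alpha gene whose product stimulates adenylyl cyclase, is read by 3 probe sets that do not behave alike. The one used by the suffix rule gave 294, 143 and 213, with pool 1 highest. Another gave 9154, 19972 and 16172, with pool 1 lowest, and the remaining one was below background on all arrays. The direction of Gnas between pools thus turned with the probe set, and no single direction is given for the gene.

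The Gq class, which activates phospholipase C beta, was represented by Gnaq and Gna11. Gnaq gave 214, 113 and 234, a 2.07-fold range with pool 2 lowest, and Gna11 gave 589, 442 and 386. The Gnaq range was 1.79-fold at a common median and 1.73-fold after quantile normalization. Gna14 (16.0 to 50.7) and Gna15 (54.6 to 118), whose product is known from blood cells, were above background on no array. Of the G12 class, Gna13 gave 572, 500 and 511, the narrowest range of the 36 as deposited. At a common median Pde7a and Pde4dip ranged less, and a further Gna13 probe set gave 192, 230 and 138, a 1.67-fold range with pool 2 highest. Gna12 gave 881, 412 and 511, a 2.14-fold range with pool 1 highest, which was 1.57-fold at a common median and 1.89-fold after quantile normalization. A further Gna12 probe set ran the other way, at 28.1 in pool 1, below background, and 156 and 202 in pools 2 and 3.

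Gnb2, a beta subunit found in many tissues, gave 1482, 2660 and 2514, and Gnb5, the beta subunit that pairs with RGS proteins of the R7 class in place of a gamma subunit, gave 2894, 2865 and 1737. Pool 1 was low for Gnb2 and pool 3 for Gnb5. Gnb4 was above background in pool 2 alone (96.1, against 114 in pool 1 and 51.2 in pool 3, both under their limits). Among gamma subunits, which anchor the dimer to the membrane through a lipid group, Gng3 of neurons gave 3296, 4860 and 3806. Gng12 gave 322, 508 and 569, Gng10 gave 272, 392 and 396, and Gng2 gave 193, 272 and 254. All 4 were lowest in pool 1, each with a range under 2-fold. Gng11 was above background in pool 2 alone, at 204, and Gng4 on no array (36.3 to 136).

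Together, 5 of the 6 beta and gamma genes above background on all arrays were lowest in pool 1, where 36.0% of all genes were lowest. Setting the 3 arrays to a common median again gave 5 of 6, and quantile normalization gave 4 of 6, with Gng3 the one that moved. Of all genes, 54.2% were lowest in pool 1 at a common median and 39.8% after quantile normalization. Their median deviation in pool 1 from the mean of the other pools was -0.49 on the log2 scale, beside 0.06 for all genes. None of the 6 reached a 2-fold range, although Gnb2, Gng3 and Gng12 did at a common median and Gnb5 and Gng12 under quantile normalization.

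RGS proteins of the R7 class, which bind Gnb5, include the pair that ends the Go signal in ON bipolar cells. Rgs7 gave 426, 958 and 603, a 2.25-fold range, and Rgs11 gave 722, 1507 and 1390, a 2.09-fold range. Both were lowest in pool 1 and highest in pool 2, under all 3 ways of scaling the arrays. Rgs6 was above background on no array (34.4 to 58.9). Their partner Gnb5 was lowest in pool 3 under all 3 scalings and so did not share this order. Go itself (Gnao1), at the probe set used, shared it at a common median. It did not as deposited, where pool 3 was highest, or after quantile normalization, where pool 1 was highest. Further Gnao1 probe sets above background on all arrays spanned 1.28-fold, 2.25-fold and 4.47-fold. Of the ON bipolar glutamate cascade, 6 listed genes had a probe set of their own, all above background on all arrays, and Rgs7 and Rgs11 had a 2-fold range (2 of 6, a share near the 28.3% of all genes). Trpm1, the channel at the end of the cascade, gave 632, 752 and 878, and Pcp2, a bipolar cell modulator of Go, gave 289, 307 and 567. Beside them, the bipolar markers Car8 (414, 1198 and 977) and Prkca (67.6, below background, then 526 and 431) were also lowest in pool 1, and the 4 measured bipolar markers summed to 1402, 2784 and 2853. Whether bipolar cell content had a part in the Rgs7 and Rgs11 values was not tested. A second Rgs11 probe set was below background on all arrays.

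The R4 class, small RGS proteins with little beside the RGS domain, passed the limit on every array for 5 of 6 genes. Rgs3 gave 657, 1007 and 1412, a 2.15-fold range with pool 3 highest. Rgs4, an inhibitor of Gi and Gq signals in neurons, gave 434, 344 and 209, a 2.07-fold range with pool 1 highest. For Rgs3 the highest and lowest pools were the same under the 3 scalings, while for Rgs4 pool 2 was highest at a common median, with a 1.90-fold range. Rgs16, also named retinal RGS, gave 834, 790 and 1142, Rgs2, which favours Gq, gave 343, 463 and 291, and Rgs8 gave 1092, 1431 and 1091. None of these 3 reached 2-fold. Rgs5, a gene of pericytes on small vessels, was 95.8 in pool 1, below background, and 390 and 391 in pools 2 and 3, at least 2.44-fold higher in pool 3 than in pool 1. Its further probe set ran against this, at 330, 223 and 112. Of the 6 smooth muscle and stroma markers, Acta2 (55.5, 722 and 734), Dcn (23.1, 602 and 648) and Col1a2 (38.8, 219 and 269) were likewise below background in pool 1. Fbln1 (720, 1247 and 1424) was lowest there but above background, and Col1a1 (556, 409 and 769) and Lum (193, 166 and 244) were lowest in pool 2. The endothelial marker Pecam1 (629, 286 and 363) was highest in pool 1. The part of these cells in the Rgs5 values was not tested.

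In the R12 class, Rgs14, which also binds Gi through a GoLoco motif, gave 531, 321 and 487, and Rgs10 gave 233, 155 and 276. Both were lowest in pool 2. For Rgs10 a further probe set gave the same order (236, 114 and 302), and another was above background in pool 1 alone (376). Rgs19, at 46.7, 9.02 and 47.0, was below background at the probe set used but above it at 2 others, which gave 161, 125 and 191, and 328, 164 and 453. Both of these were lowest in pool 2 and highest in pool 3.

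As deposited and at the probe sets used, cyclases were the most variable family. Their median SD was 0.62 on the log2 scale over 5 genes, against 0.46 for 10 alpha subunits and 0.43 for 9 RGS genes. That median is the SD of Adcy9, whose probe sets disagree. Families were not ranked under other settings. All 4 adenylyl cyclases that passed the limit on every array (Adcy2, Adcy4, Adcy6 and Adcy9) had a range of 2-fold or more, against 28.3% of all genes. Adcy6 fell short of it at a common array median (1.71-fold) and Adcy9 with the mean of its probe sets (a log2 difference of 0.43). Adcy2, which Gs and beta-gamma dimers activate jointly, gave 588, 1680 and 1417, a 2.86-fold range with pool 1 lowest. Adcy4, of the same beta-gamma-sensitive class, ran differently, at 462, 139 and 374, a 3.33-fold range with pool 2 lowest. Adcy6, which calcium inhibits, gave 1615, 794 and 800, so that pool 1 was about 2-fold above pools that lay close together. Adcy9 gave 255, 580 and 475 with pool 1 lowest, but its other probe set gave 373, 269 and 223 with pool 1 highest. The 4 isoforms thus had no common order across pools, and for Adcy9 the order depends on the probe set.

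The remaining adenylyl cyclases were near the limit. Adcy8, stimulated by calcium and calmodulin, was 115 in pool 1, below background, and 256 and 214 in pools 2 and 3, at least 1.59-fold and at least 1.33-fold higher. Adcy7 gave 97.6, 154 and 152, and the limit of array 1 does not allow a fold. Adcy3 gave 94.9, 103 and 61.0, above background in pool 2 alone, and the limits of arrays 1 and 3 do not allow a fold. Adcy1 and Adcy5 had no probe set with a symbol of their own in the annotation used.

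Gucy1b1, the beta subunit of soluble guanylyl cyclase, the receptor for nitric oxide, gave 651, 988 and 613, a 1.61-fold range that became 2.07-fold at a common array median. Gucy2c, the membrane guanylyl cyclase of intestinal epithelium that binds guanylin, was 634 in pool 1 and below background at 44.1 and 33.2 in pools 2 and 3. Pool 1 was at least 7.85-fold above pool 2 and at least 5.92-fold above pool 3, the widest gap among the 53 genes. A further Gucy2c probe set was below background on all arrays (138, 73.1 and 51.5), so the gap rests on 1 probe set on 1 array.

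Of 7 phosphodiesterase genes, 4 were measured above the limit in every pool. Pde9a, which has a high affinity for cyclic GMP, gave 428, 181 and 126, a 3.39-fold range with pool 1 highest. This was the widest of the 36 as deposited, but at a common median and after quantile normalization Gnaz ranged more widely (4.26-fold and 3.85-fold, against 2.87-fold and 2.97-fold for Pde9a). The value of pool 3 lay just above its limit of 107.1. Pde1b, which calcium and calmodulin activate, gave 732, 1160 and 1098. The cyclic AMP-specific enzymes Pde4b and Pde7a gave 322, 195 and 332, and 374, 278 and 292. None of these 3 reached 2-fold as deposited, and Pde1b did at a common array median (2.16-fold). Pde8a was below background in pool 1, at 95.5, and gave 206 and 288 in the others, at least 1.79-fold higher in pool 3. Pde1a (4.01 to 16.6) and Pde1c (8.90 to 156) were above background on no array. Pde2a, Pde5a and Pde10a had no probe set with a symbol of their own in the annotation used.

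Of the 4 genes that share only the start of a symbol, Adcyap1, which encodes the peptide PACAP, gave 252, 130 and 106, with the last value just under the limit of 107.1 and pool 1 at least 2.35-fold above it. Its receptor gene Adcyap1r1 gave 239, 189 and 269. Pde4dip, which encodes an anchoring protein of the centrosome and Golgi, gave 724, 582 and 640. The antisense transcript Gnasas1 of the Gnas locus was above background on no array (28.2 to 67.1).

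Across the 36 genes above background on all arrays, 13 (36.1%) spanned 2-fold or more between the highest and the lowest pool, against 28.3% of all genes that passed the limit on every array. Their median SD over the pools was 0.43 on the log2 scale, beside 0.36 for all genes. Without pool 1 the count was 2 of 40 (Adcy4 and Gnaq), beside 5.66% of all genes, without pool 2 it was 6 of 36, beside 17.8%, and without pool 3 it was 10 of 37, beside 21.9%. Most of the 2-fold ranges therefore involved pool 1, among these genes as over the whole array. The ranges just inside the threshold were 2.03-fold for Adcy6 and 2.07-fold for Gnas, Gnaq and Rgs4, and those just outside were 1.89-fold for Gnai3 and 1.85-fold for Gnai1. Of the genes above background on 1 or 2 arrays, 3 of 9 (Gucy2c, Rgs5 and Adcyap1) had a highest pool at least 2-fold over the limit of their lowest array, against 47.4% of all such genes.

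**Figure D2:**
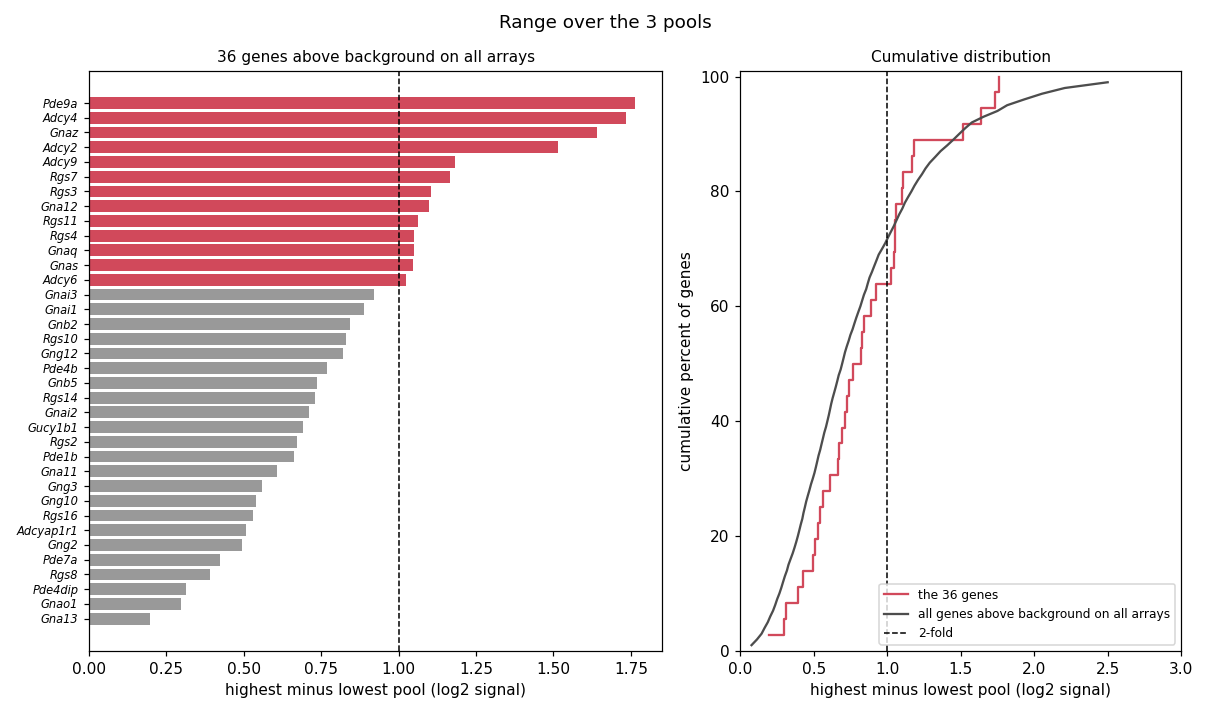
Left, the difference between the highest and the lowest pool in log2 signal for the 36 genes that passed the limit in every pool, with the 13 that reach 2-fold (dashed line) in red. Right, the cumulative percent of these 36 genes and of all 5006 genes above background on all arrays against the same difference. The gene with the widest range is Pde9a at 1.76 and the one with the narrowest is Gna13 at 0.20.

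The 13 genes split by pool 1 at the probe sets used. Gnaz, Adcy2, Adcy9, Rgs3, Rgs7 and Rgs11 were lowest in pool 1 (6 of 13, 46.2%), and Pde9a, Adcy4, Adcy6, Gna12, Gnas and Rgs4 were highest there (6 of 13). With Gnas read at its brightest probe set, the counts were 7 lowest and 5 highest. Gnaq was the exception, lowest in pool 2 and highest in pool 3. The split moved with the scaling. With arrays at a common median, 80.0% of 15 such genes were lowest in pool 1 and 13.3% highest, and after quantile normalization 63.6% of 11 were lowest and 36.4% highest. As deposited, the median log2 signal of array 1 lay 0.23 above the mean of the 3 array medians and that of array 2 differed from it by -0.22, a shift that common-median scaling removes. Over all genes with such a range, 32.4% were lowest and 58.5% highest in pool 1 as deposited, 66.7% and 25.1% at a common median, and 43.4% and 49.1% after quantile normalization, so the array-wide split moved too. Each of Adcy2, Adcy4, Rgs3, Rgs7 and Rgs11 (5 of 13) reached 2-fold in all 8 alternatives of limit, scaling, floor and probe set that kept the 3 pools. Without pool 1, Adcy2, Rgs3, Rgs7 and Rgs11 no longer did, and without pool 2, Adcy4 did not. The highest and the lowest pool were both the same under the 3 scalings for 11 of the 13 genes and for 17 of the 36. A wide range keeps its order more readily, and neither count was made over all genes.

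**Figure D3:**
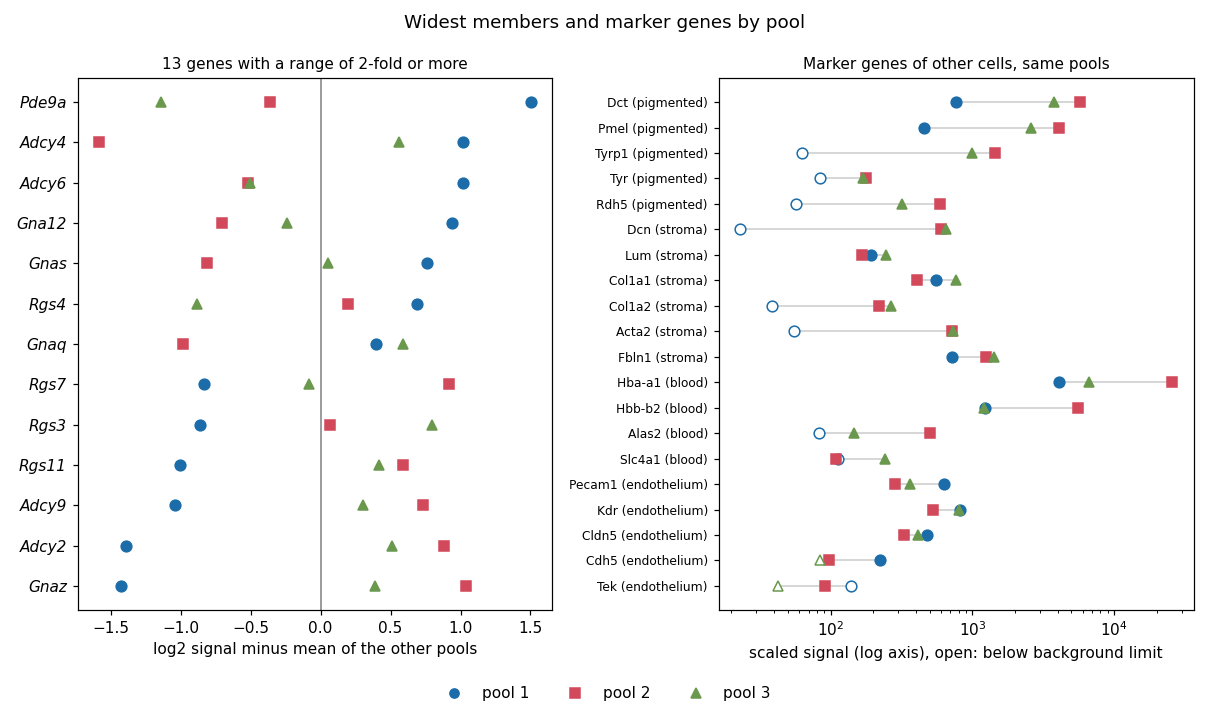
Left, log2 signal of each pool minus the mean of the other pools for the 13 genes with a 2-fold range, ordered by pool 1. Right, scaled signals (log axis) of the measured markers of pigmented cells, stroma and smooth muscle, blood and endothelium in the same pools, with open points below the background limit. Gnaz and Adcy2 deviate by -1.42 and -1.39 in pool 1, and Pde9a, at the other end, is highest there. The summed pigmented cell, stroma and blood markers are lowest in pool 1 and the endothelial ones highest. A link between these markers and the 13 genes was not tested.

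Across all 36 genes the extremes were spread over the pools. Of them, 14 were lowest and 12 highest in pool 1, against 36.0% lowest and 42.6% highest among all genes. In pool 2, 14 were lowest and 14 highest, against 32.4% and 33.0%, and in pool 3, 8 were lowest and 10 highest, against 31.6% and 24.4%. At a common array median, 22 of the 36 were lowest in pool 1 and 23 highest in pool 2, against 54.2% and 55.2% of all genes. After quantile normalization 15 were lowest in pool 1 and 15 highest in pool 2, against 39.8% and 34.4%. The median deviations were -0.14, 0.14 and 0.17 in pools 1, 2 and 3, beside 0.06, -0.01 and -0.04 for all genes. Their log2 signals correlated at r = 0.82 between pools 1 and 2, 0.84 between pools 1 and 3 and 0.92 between pools 2 and 3 (n = 36 genes, which share the arrays).

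The relatives that serve phototransduction were measured for 11 genes, and all 11 passed the limit in every pool. Of these, 5 spanned 2-fold or more (Gnb1, Gnb3, Gngt2, Pde6a and Rgs9), against 28.3% of all genes, and 7 were lowest in pool 1, against 36.0%. Their median deviation in pool 1 was -0.48, beside -0.14 for the 36 genes chosen here and 0.06 for all genes, a difference that was not tested. Gnb1, the beta subunit of rod transducin, gave 9934, 26613 and 27086, so pool 1 was lowest for it as for Gnb2.

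Effectors of cyclic nucleotides that passed the limit in every pool mostly varied little. Of 13 measured genes, 10 passed the limit in every pool, against 60.7% of all genes. Of the 10, only Prkar2a (711, 286 and 489), a regulatory subunit of cyclic AMP-dependent kinase, had a 2-fold range, against 28.3%. The catalytic subunit genes Prkaca (1266, 1615 and 1849) and Prkacb (3532, 2979 and 3173) and the regulatory Prkar1a (6120, 7643 and 5654) lay closer together. The median SD of the 10 was 0.20 on the log2 scale, beside 0.43 for the 36 genes and 0.36 for all genes. Their median signal was 1173, beside 508 and 633, and its part in the SD was not tested. Crem, of the same list, gave 209, 58.4 and 103, below background in pools 2 and 3. It was at least 2.59-fold higher in pool 1 than in pool 2. For Creb1 the bound was 1.06-fold, and Prkg2 was above background on no array.

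Of the genes with several probe sets, 19 in number, 9 had at least 2 that were above background on all arrays. The highest pool was the same at all such probe sets for 2 of the 9 genes (Rgs10 and Rgs19), and the lowest pool for 5. The same counts were not made over all genes, so whether these genes differ from others in this is not known. For Gnao1, the 3 further probe sets above background on all arrays gave 205, 337 and 462, then 707, 297 and 158, and 724, 573 and 735, so that pool 1 was lowest at one, highest at another and in between at the last. The range of Gnao1 was therefore narrow at the probe set used (1.23-fold) and at the last of these (1.28-fold). At the others it was 2.25-fold and 4.47-fold. For Gnai2, further probe sets gave 7579, 7458 and 8127, and 2754, 2036 and 2066.

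**Figure D4:**
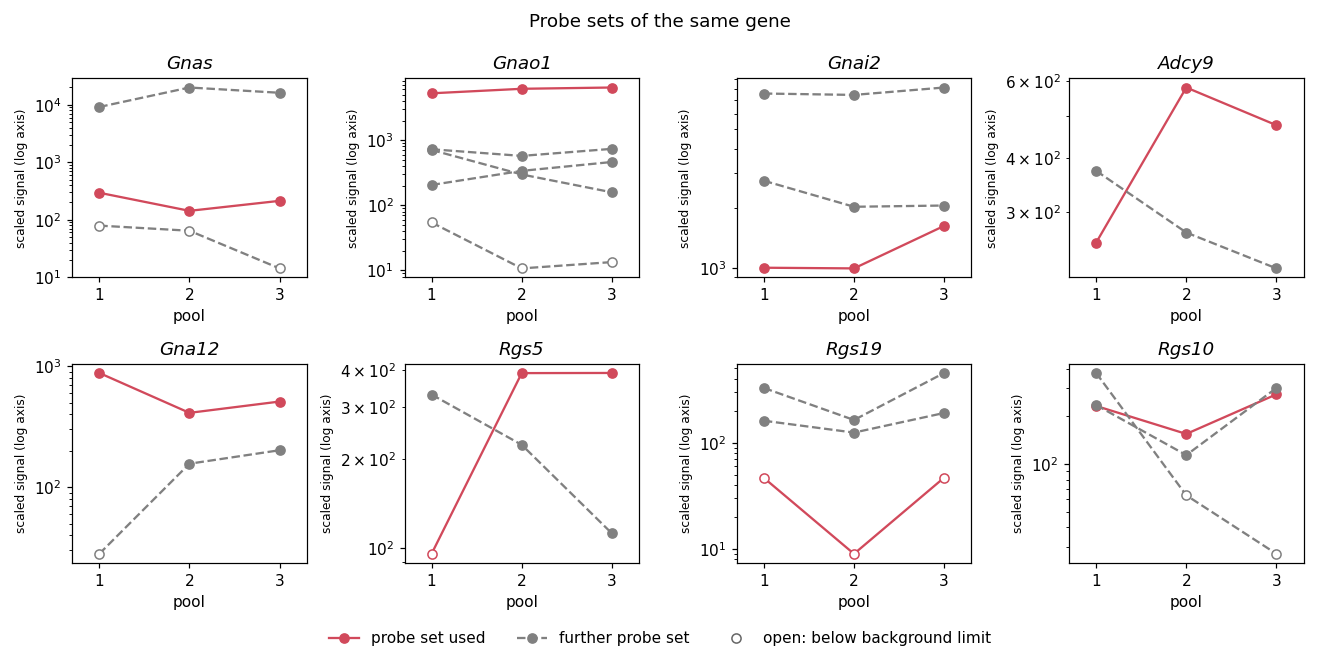
Scaled signals (log axis, a separate scale in each panel) in pools 1, 2 and 3 at every probe set of 8 genes with more than 1, with the probe set used in red and further ones in grey. Lines join the values of a probe set, and open points lie below the background limit. The red and grey lines cross for Adcy9 and Rgs5 and run against each other for Gnas and Gna12, whereas those of Rgs19 run alike.

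The upstream sequences of 4 of the 13 genes are shown. Each of these is read by 1 probe set and has 1 start in the promoter table of RefSeq (build GRCm38.p6), which held 41 of the 53 genes. Each was also required to be lowest or highest in pool 1, so its place there was part of the choice. Adcy2 and Rgs7 were lowest in pool 1, and Adcy4 and Rgs4 highest there. Each run gives the 250 bases before the start, 5′ to 3′ on the minus strand, from chr13:68999542-68999791 for Adcy2, chr1:175492546-175492795 for Rgs7, chr14:55784073-55784322 for Adcy4 and chr1:169747643-169747892 for Rgs4. Capitals mark matches, on either strand, to the core of the cyclic AMP response element (TGACG), the GC box (GGGCGG), the CRX-type element (TAATCC) and the TATA box (TATAAA).
Adcy2: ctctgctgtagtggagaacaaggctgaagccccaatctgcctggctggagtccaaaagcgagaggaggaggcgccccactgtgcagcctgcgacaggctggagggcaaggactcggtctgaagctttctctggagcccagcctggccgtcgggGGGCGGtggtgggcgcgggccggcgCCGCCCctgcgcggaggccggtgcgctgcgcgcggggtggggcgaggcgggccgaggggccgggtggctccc
Rgs7: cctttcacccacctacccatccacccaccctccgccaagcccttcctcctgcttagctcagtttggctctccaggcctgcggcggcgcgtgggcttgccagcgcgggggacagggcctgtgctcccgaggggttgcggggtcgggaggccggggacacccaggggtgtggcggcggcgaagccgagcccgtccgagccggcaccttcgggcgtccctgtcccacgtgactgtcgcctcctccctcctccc
Adcy4: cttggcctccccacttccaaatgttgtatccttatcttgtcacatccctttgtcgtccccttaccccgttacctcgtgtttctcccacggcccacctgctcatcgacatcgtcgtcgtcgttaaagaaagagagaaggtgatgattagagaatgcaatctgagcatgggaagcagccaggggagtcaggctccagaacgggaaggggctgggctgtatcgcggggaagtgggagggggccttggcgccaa
Rgs4: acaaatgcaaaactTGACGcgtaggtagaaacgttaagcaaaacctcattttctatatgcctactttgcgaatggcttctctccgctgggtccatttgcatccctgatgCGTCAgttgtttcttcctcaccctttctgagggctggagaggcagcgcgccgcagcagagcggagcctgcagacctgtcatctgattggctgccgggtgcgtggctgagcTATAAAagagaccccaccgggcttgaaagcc
The Adcy2 run held 2 GC boxes, and the Rgs4 run held 2 cores of the cyclic AMP response element and a TATA box that begins 31 bases before the start (position -31). The Rgs7 and Adcy4 runs held no match to these letters. Among 32851 promoters of the same length, 17.8% held that core, 32.7% the GC box, 6.25% the CRX-type element and 12.4% the TATA box. Bases G and C made up 73.2% of the Adcy2 run, 72.4% of the Rgs7 run, 56.0% of the Adcy4 run and 53.6% of the Rgs4 run, beside a median of 52.4% for all promoters.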

How the data were processed

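Per the labels, total RNA of 3 pools of Rp1-/- neural retina was hybridised to 1 array each, with a U74Av2 design named in each title. The deposited table holds 1 linear intensity for each of 12488 probe sets and array, with 0 missing. Software, background correction and scaling target are not given in the sources used here. The deposited intensities have a 2% trimmed mean of 500.2, 500.3 and 500.2, so they were scaled before deposit.

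Each array was multiplied by 1 factor (0.998, 1.00 and 1.00) to equal trimmed means over 12422 non-control probe sets. Values under the 5th percentile of an array were raised to it before log2. Where a gene was below the limit on an array, a fold was given as a lower bound, the signal of the brighter pool over the limit of the dimmer array. Symbols came from the platform annotation (10833 probe sets with 1 symbol, 396 with several), and all 53 members had a symbol in the GRCm38.p6 gene table. No 2 arrays held identical values. Genes are named with values in every pool if their range or bound reached 2-fold or if they were on a list of retinal interest, and further genes were named as family members. Members, lists and rules were chosen with earlier results of these data known. Computations were tested on simulated data. No test or p-value was computed, since 1 group was measured, and the number of arrays limits the precision. Alternatives to limit, scaling, floor, probe set and samples were tried. The tools were pandas 2.3.3, numpy 2.4.6 and matplotlib 3.10.9 under Python 3.11.15.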

Additional observations from a re-analysis of the deposited data

Results flagged for a closer look

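Signals stood above background outside the probe sets used. For Rgs19, 2 further probe sets averaged 159 and 315 and were above background on all 3 arrays, while the one used was on none. For Rgs5, a further probe set averaged 222 and was above background on all arrays, while the one used was below it in pool 1. For Gnas, a further probe set averaged 15099, over 10 times the one used, a threshold chosen after the values were seen. A probe set annotated to both Gng5 and its pseudogene Gng5-ps averaged 4575 (3475, 5747 and 4502 in pools 1, 2 and 3) and was left out because it names more than 1 gene. Groups of 3 samples are too small for a check of single outlying pools.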

How the results depend on the processing

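The number of genes above background on all arrays was within 1.5 times of 36 under all alternatives tried, between 32 (limit at the brightest control) and 48 (limit at the median control). Of all genes, 55.48% and 85.82% were above background under these limits. The count of 13 genes with a 2-fold range became 23 of 48 with the limit at the median control. It was 26 of 36 at a threshold of 1.5-fold and 3 of 36 at 3-fold. Looser limits and thresholds admit more genes by construction. Among all genes above background the shares were 42.95%, 60.73% and 7.97%, in the same order. Leaving out 1 pool at a time gave between 2 (without pool 1) and 10 genes (without pool 3), and 6 without pool 2, from 2 pools each. Of all genes, 5.66%, 17.8% and 21.9% had such a range without pools 1, 2 and 3. The median SD lay between 0.29 and 0.49. The difference of Gnas between pools 1 and 2, 1.05 on the log2 scale, turned to -1.13 when the brightest probe set was used and was -1.08 for the average over its probe sets, as both follow the brighter probe set. The difference between the highest and lowest pool also turned sign for Pde7a at a common median (-0.03), for Gnao1 under quantile normalization (-0.02) and for Pde1a, which was below background, with its brightest probe set (-0.13), each by little. No paired analysis was possible because the samples form 1 group.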

Other observations

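Genes that act on or beside these G proteins were measured too. Of 10 measured receptor kinases, arrestins and modulators, 6 passed the limit in every pool, against 60.7% of all genes, and 3 of these had a 2-fold range, against 28.3%. Arhgef1, whose product G12-class subunits activate, gave 770, 217 and 185 in pools 1, 2 and 3, the widest of them at 4.16-fold. Gpsm3, which binds Gi subunits, gave 519, 243 and 295, and Plcb1, the phospholipase C that Gq activates, gave 2080, 1517 and 3437. Grk6, a receptor kinase, was 119 in pool 1, below background, and 490 and 531 in the others, at least 3.31-fold higher in pool 3. Pdc, the photoreceptor protein phosducin that binds beta-gamma dimers, gave 18902, 30822 and 17976.

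Of 10 measured genes of nitric oxide and natriuretic peptide signalling, which feed the guanylyl cyclases, 2 passed the limit in every pool, against 60.7% of all genes, and 5 in none. Nppa, the atrial natriuretic peptide gene, gave 681, 277 and 523. Nppb gave 162, 90.5 and 113, close to the limits. Nos1 (32.6, 42.3 and 85.3) and Nos3 (54.5, 51.6 and 56.9), genes of nitric oxide synthases, were above background on no array, and Nos2 was above it in pool 1 alone, at 228. Guca2b, which encodes a ligand of Gucy2c, was 166 in pool 1, just above the limit of 160.3, and 25.1 and 22.7 in pools 2 and 3, below theirs, while the other ligand gene Guca2a was above background on no array (36.5 to 61.0).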
